A study of Mus musculus with 12 samples.

Results

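Ch25h, Cyp7b1 and Rora encode the enzyme that makes 25-hydroxycholesterol, an enzyme that converts it further, and a nuclear receptor that responds to sterols. The 3 genes were taken by their symbols from the 57010 Ensembl mouse gene IDs of the deposited count tables (ENSMUSG00000050370, ENSMUSG00000039519 and ENSMUSG00000032238). All 3 had counts in each of 12 libraries and passed the filter on low counts, which left 14253 genes. The libraries came from primary mouse chondrocytes of wild-type genotype, 4 labelled Control, 4 from cells given the WT plasmid and 4 from cells given the SIRT5F101L mutant plasmid. SIRT5 is a sirtuin found mainly in mitochondria, where it strips acidic acyl marks such as malonyl and succinyl off proteins. The labels do not say what the Control cells received, which species' SIRT5 the plasmids carry or the age of the mice, and nothing states that libraries of a group came from separate mice or cultures. The p-values therefore measure the spread between these libraries, which may be technical.

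Oxysterols are oxidised forms of cholesterol. CH25H adds a hydroxyl group to the side chain of cholesterol, CYP7B1 hydroxylates the steroid ring of the product, and the resulting sterols leave toward bile acid synthesis or act as signals. ROR alpha binds DNA as a monomer at ROR elements, drives genes of the circadian clock, and is known to take sterols in its ligand pocket. In cartilage, the trio is known as a route by which cholesterol taken up by chondrocytes acts on matrix-degrading enzymes in osteoarthritis. In macrophages, Ch25h is known as a gene that interferon and Toll-like receptor signals induce.

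Library totals ran from 15095357 to 24242139 counts. Sirt5, which checks the labels, had 1 to 19 counts per library and passed the test in no comparison (edgeR adjusted p 0.143, 0.954 and 0.459). Its mean was 0.384 CPM in the libraries labelled WT, under the 0.688 CPM of Control, and 0.721 CPM in SIRT5F101L. The log2 fold change against Control was -0.86 in WT (95% interval -1.89 to 0.16) and 0.03 in SIRT5F101L (95% interval -0.90 to 0.97), so the counts of Sirt5 do not show the plasmids. All 11 chondrocyte markers were detected, of which 2 rose and 9 fell in WT and 1 rose and 9 fell in SIRT5F101L, where edgeR called 28.1% and 30.7% of all tested genes lower. Their summed level was 9282 to 11636 CPM (the count as a share of a library's total, per 1e6, scaled by TMM) in Control, 2842 to 2954 in WT and 2313 to 2558 in SIRT5F101L. The sum rests mostly on the matrix genes of the list. In bulk libraries, fewer cells of a type and less RNA per cell cannot be told apart. Some IDs may not have been measurable: all 2414 on the X chromosome and all 37 of the mitochondrial genome were at 0 in every library, and a gene listed at 0 below is not shown to be unexpressed. Replicate numbers follow the order of the samples and pair no libraries across groups. SIRT5F101L replicate 1 stood apart from its group in the dependence of counts on transcript length, described with Rora.

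Ch25h rose in both plasmid groups. Its counts were 63, 93, 53 and 79 in Control replicates 1 to 4, 223, 195, 277 and 254 in WT, and 360, 285, 396 and 296 in SIRT5F101L. Scaled to library size, these were 3.66, 4.71, 2.82 and 4.32 CPM in Control, 11.0, 12.5, 16.0 and 13.1 CPM in WT, and 19.2, 18.5, 15.9 and 16.8 CPM in SIRT5F101L. The lowest plasmid library lay above the highest Control library. The mean rose from 3.88 ± 0.827 CPM (SD, n = 4) to 13.1 ± 2.09 with the WT plasmid, which is 3.37-fold or 1.75 on the log2 scale (SE 0.15, adjusted p 3.88e-09 by edgeR). With the SIRT5F101L plasmid it rose to 17.6 ± 1.55 CPM, which is 4.52-fold or 2.18 on the log2 scale (SE 0.15, adjusted p 9.98e-11 by edgeR). The size of the change exceeded that of 92.9% of all tested genes for WT and 95.2% for SIRT5F101L. Both comparisons use the same Control libraries.

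The promoter of Ch25h is shown because the gene had the clearest change of the trio. The sequence covers the 250 bases before the RefSeq transcription start on GRCm38.p6, chr19:34475149-34475398, minus strand, with a cAMP response element in capitals. It is the table's build, not the GRCm39 build of the counts.
Ch25h: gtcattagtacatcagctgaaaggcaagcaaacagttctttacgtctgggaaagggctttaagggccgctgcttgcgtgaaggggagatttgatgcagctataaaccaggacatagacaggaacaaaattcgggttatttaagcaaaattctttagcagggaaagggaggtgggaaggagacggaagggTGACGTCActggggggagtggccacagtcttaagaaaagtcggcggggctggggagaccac
The capitals mark TGACGTCA, a palindrome that ATF and CREB family factors are known to bind, which begins 61 bases before the start. This motif was chosen after the sequence was seen, and 1.55% of the 32851 promoter windows of that length hold it on either strand. The 250 bases held no match on either strand to AGGTCA, the half-site known for ROR and LXR receptors (14% of windows), to the AP-1 motif TGANTCA (6.75%), to the core of the interferon-stimulated element (2.98%), or to the STAT motif TTCNNNGAA (7.02%). The same motifs had no match in the 250 bases before the Rora start in the table. Atf3, a factor of the ATF family known to repress Ch25h, had log2 fold changes of 0.47 in WT and 0.62 in SIRT5F101L (edgeR adjusted p 0.000577 and 2.26e-05).

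In the GENCODE M21 annotation, 11.5% of the single Ch25h transcript of 1387 bases overlaps exons of Gm26902, a gene on the opposite strand. The strand setting of the authors' counting is not given in the sources used here, so reads of the pair cannot be told apart in the shared stretch. Gm26902 itself rose, from 1.31 ± 0.385 CPM (SD, n = 4) in Control to 5.48 ± 0.672 in WT and 6.998 ± 0.951 in SIRT5F101L (log2 fold change 2.05 and 2.40, edgeR adjusted p 2.99e-08 and 1.99e-09). Its part in the counts of Ch25h was not tested.

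Cyp7b1 was scarce, and its mean was lower in both plasmid groups, past the threshold only with the WT plasmid. Its level was 3.89, 3.24, 2.77 and 2.02 CPM in Control replicates 1 to 4, 1.92, 1.67, 1.62 and 2.62 CPM in WT, and 2.62, 2.40, 1.64 and 1.98 CPM in SIRT5F101L. WT replicate 4 and SIRT5F101L replicates 1 and 2 lay within the Control range, so the groups overlapped in both comparisons. The mean was 2.98 ± 0.789 CPM (SD, n = 4) in Control, 1.96 ± 0.463 in WT and 2.16 ± 0.435 in SIRT5F101L. The WT mean was lower by a log2 fold change of -0.59 (SE 0.24, 95% interval -1.11 to -0.08), with an edgeR adjusted p of 0.0442. The SIRT5F101L difference of -0.47 (SE 0.24, 95% interval -0.98 to 0.03) did not pass, with an edgeR adjusted p of 0.0977. Libraries held only 26 to 67 counts of Cyp7b1, and counting error alone gives a spread of 13.5% of the mean in Control, beside 26.4% observed.

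The WT call for Cyp7b1 was close to the threshold. It was kept in 2 of 8 fits that left out 1 library, those without Control replicate 4 and without WT replicate 4, and was lost in the other 6. DESeq2 gave an adjusted p of 0.0661, and the edgeR adjusted p ran from 0.0157 to 0.159 over the edgeR alternatives. For SIRT5F101L the difference passed without Control replicate 4, the lowest Control library (-0.62, edgeR adjusted p 0.0353).

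Because a ratio of 2 genes within a library does not depend on library scaling, Ch25h was also set against Cyp7b1, each as counts per kb of its longest transcript (1.39 and 2.17 kb). The ratio was 1.47, 2.27, 1.59 and 3.33 in Control replicates 1 to 4, 8.93, 11.7, 15.4 and 7.78 in WT, and 11.5, 12.03, 15.1 and 13.2 in SIRT5F101L. Every plasmid library was above every Control library, and the plasmid groups overlapped. Ch25h alone already separated the plasmid libraries from Control, so the separation of the ratio adds no independent result. The mean was 2.17 ± 0.855 (SD, n = 4) in Control, 11.0 ± 3.41 in WT and 12.9 ± 1.60 in SIRT5F101L. The transcript of the synthesising enzyme thus exceeded that of the degrading enzyme per kb in all 12 libraries, with the smallest ratio in Control replicate 1.

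**Figure D1:**
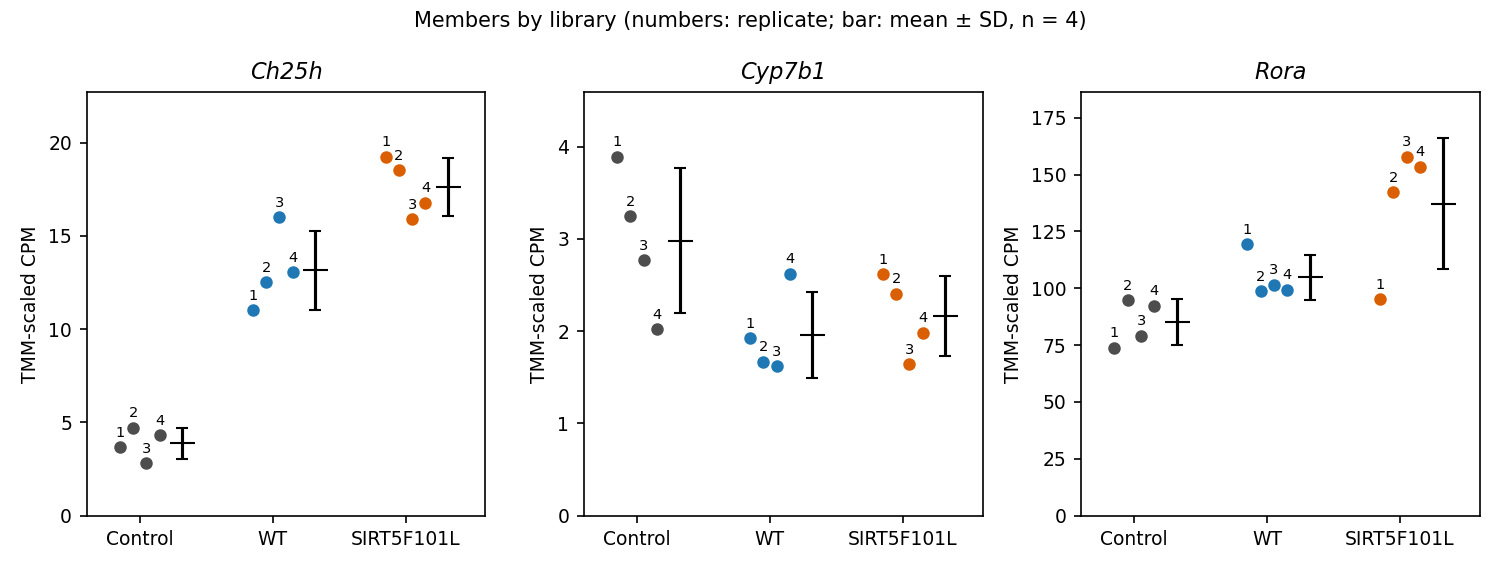
TMM-scaled CPM (vertical axes, starting at 0) of Ch25h, Cyp7b1 and Rora in the 12 libraries, by group, with replicate numbers beside the points and the mean ± SD of 4 libraries as a bar. Ch25h in Control lies at 2.82 to 4.71 CPM, under all plasmid libraries, the Cyp7b1 groups overlap, and Rora in SIRT5F101L replicate 1, at 95.3 CPM, lies far under the other libraries of its group.

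**Figure D2:**
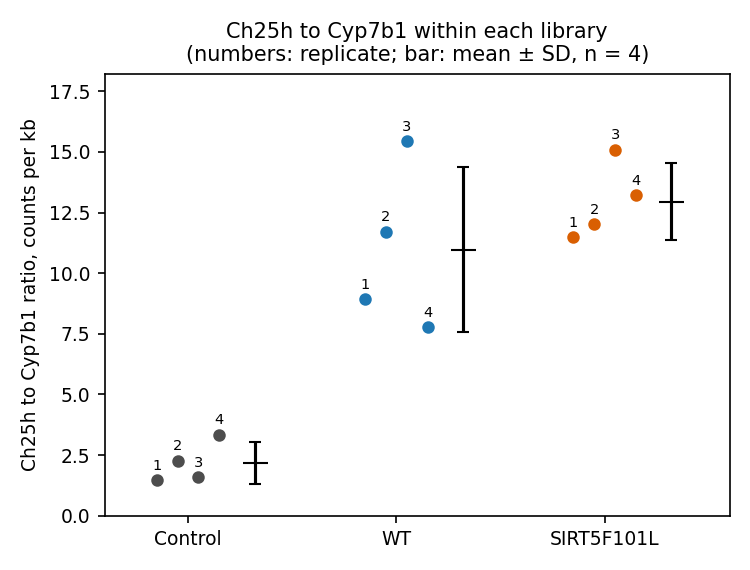
Ratio of Ch25h to Cyp7b1 counts per kb within each library (vertical axis, starting at 0), by group, with replicate numbers beside the points and the mean ± SD of 4 libraries as a bar. Control libraries lie at 1.47 to 3.33 and plasmid libraries at 7.78 to 15.4.

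Rora was higher in both plasmid groups, by less than Ch25h. Its level was 73.8, 94.8, 79.2 and 92.4 CPM in Control replicates 1 to 4, 119, 98.7, 102 and 99.4 CPM in WT, and 95.3, 142, 158 and 153 CPM in SIRT5F101L. No plasmid library fell into the Control range, although SIRT5F101L replicate 1 exceeded the highest Control library by little. The mean rose from 85.1 ± 10.1 CPM (SD, n = 4) to 137 ± 28.7 with the SIRT5F101L plasmid, which is 1.61-fold or 0.69 on the log2 scale (SE 0.12, adjusted p 5.60e-05 by edgeR). The call held in all 8 fits that left out 1 library, with log2 fold changes of 0.62 to 0.83. With the WT plasmid the mean was 105 ± 9.84 CPM, higher by 0.30 on the log2 scale (SE 0.12, adjusted p 0.0402 by edgeR). That call was lost without Control replicate 1, Control replicate 3, WT replicate 1 or WT replicate 3 (edgeR adjusted p 0.0562 to 0.133), and with upper-quartile scaling (0.25, edgeR adjusted p 0.0903) or a robust prior (0.30, edgeR adjusted p 0.0990).

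The Rora level moved with a property of the libraries. For each library, the deviation of log2 CPM from the mean over libraries was regressed on log2 transcript length across genes, and a positive slope means relatively more counts on long transcripts. The slope was -0.07 to -0.04 in Control and 0.05, -0.02, 0.00 and -0.04 in WT replicates 1 to 4. In SIRT5F101L it was -0.06 in replicate 1 and 0.09, 0.08 and 0.10 in replicates 2 to 4. The longest Rora transcript has 10.88 kb, and the 4 libraries with the steepest positive slope, WT replicate 1 and SIRT5F101L replicates 2 to 4, were the 4 with the highest Rora level. What sets the slope was not tested.

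Rora was then refitted with each library's trend on length as an offset, an alternative chosen after the data were seen. The corrected level was 82.4, 107, 91.5 and 98.3 CPM in Control replicates 1 to 4, 108, 98.9, 101 and 106 CPM in WT, and 104, 124, 133 and 129 CPM in SIRT5F101L. WT and Control then overlapped, and SIRT5F101L replicate 1 lay within the Control range. The WT difference fell to 0.13 (SE 0.08, edgeR adjusted p 0.147) and did not pass. The SIRT5F101L difference fell to 0.37 (SE 0.07, edgeR adjusted p 0.000149) and passed. Ch25h, a short transcript, kept its calls under the same correction, with log2 fold changes of 1.83 and 2.31.

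**Figure D3:**
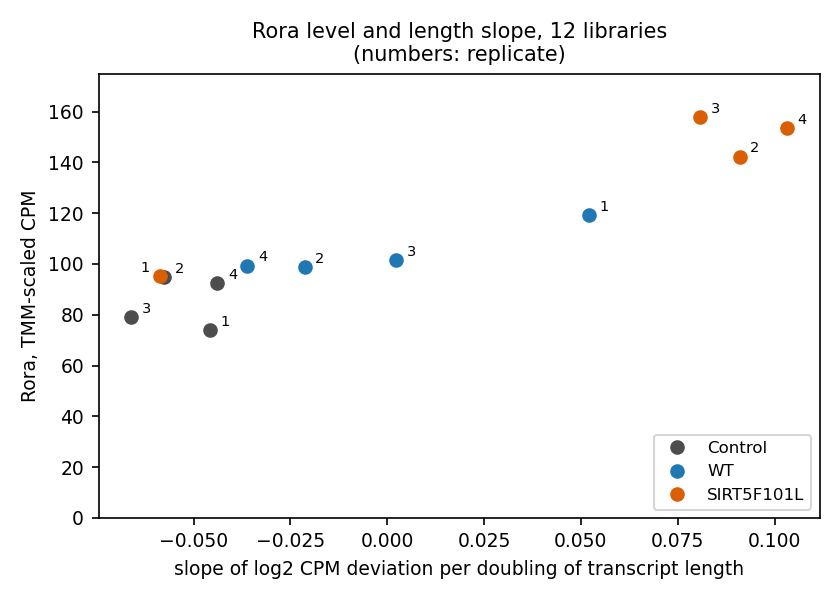
TMM-scaled CPM of Rora (vertical axis, starting at 0) against each library's slope of log2 CPM deviation on log2 transcript length (horizontal axis), one point per library, coloured by group and numbered by replicate. SIRT5F101L replicate 1 lies within the Control range of the slope and, at 95.3 CPM, beside the highest Control library, and SIRT5F101L replicates 2 to 4 lie at the upper right, at 142 to 158 CPM.

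Counts of Rora are summed over 6 annotated transcripts, whose isoforms the tables do not separate. Per kb of the longest transcript, Rora averaged 7.82 ± 0.933 CPM per kb (SD, n = 4) in Control, above Ch25h at 2.80 ± 0.596 and Cyp7b1 at 1.377 ± 0.364. In WT the order of Rora and Ch25h could not be told apart by their spread, at 9.63 ± 0.905 and 9.48 ± 1.51 CPM per kb. The same was true of SIRT5F101L, at 12.6 ± 2.64 and 12.7 ± 1.12 CPM per kb. Cyp7b1 was the lowest of the trio in both, at 0.904 ± 0.214 and 0.999 ± 0.201 CPM per kb.

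Read against all genes, the calls of the trio were not unusual in number. All 3 were called in WT against Control, 2 higher and 1 lower, where edgeR called 56.8% of 14253 tested genes, 28.7% higher and 28.1% lower. In SIRT5F101L against Control 2 of the 3 were called, both higher, where 60.7% of genes were called, 30.0% of all tested genes higher and 30.7% lower. Ch25h and Rora did not overlap between groups in either comparison, which was so of 53.5% of genes for WT and 51.3% for SIRT5F101L.

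Whether the mutant plasmid differed from the WT plasmid was asked directly. Ch25h was higher in SIRT5F101L by 0.42 on the log2 scale (SE 0.13, 95% interval 0.15 to 0.69 before adjustment), and Rora by 0.39 (SE 0.12, 95% interval 0.14 to 0.64). Neither passed, with an edgeR adjusted p of 0.330 for each and unadjusted edgeR values of 0.00426 and 0.00415. Cyp7b1 differed by 0.12 (SE 0.25, 95% interval -0.40 to 0.65, edgeR adjusted p 0.870). Thus 0 of 3 were called and 2 had an unadjusted p under 0.05, where edgeR called 0.0421% of genes and 11.9% had an unadjusted p under 0.05. The plasmid groups overlapped for all 3, and 4.02% of genes did not overlap. For Ch25h only WT replicate 3, at 16.0 CPM, reached into the SIRT5F101L range, and for Rora only SIRT5F101L replicate 1 lay in or under the WT range.

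Single libraries and the filter decided these calls. Without SIRT5F101L replicate 1, Rora passed at 0.53 (edgeR adjusted p 1.43e-05) and Ch25h at 0.38 (edgeR adjusted p 0.0472), in a fit that called 2213 genes in all. The SIRT5F101L libraries left in that fit had length slopes of 0.08 to 0.10, all above the -0.04 to 0.05 of WT. The length offset was not run on that fit, and the part of the slope in its calls was not tested. Leaving out any of the other 7 libraries called no gene by edgeR, with 945 to 2191 genes at an unadjusted p under 0.05. With no filter beyond 1 count, Ch25h (0.42, edgeR adjusted p 0.0391) and Rora (0.38, edgeR adjusted p 6.77e-05) passed too. That fit called 354 genes in all. Its SE for Rora was 0.07, beside 0.12 in the main fit, while the difference itself hardly moved. With the length trend as offset, Rora differed by 0.24 (edgeR adjusted p 0.235) and Ch25h by 0.48 (edgeR adjusted p 0.131). DESeq2 gave adjusted p values over the threshold for all 3.

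**Figure D4:**
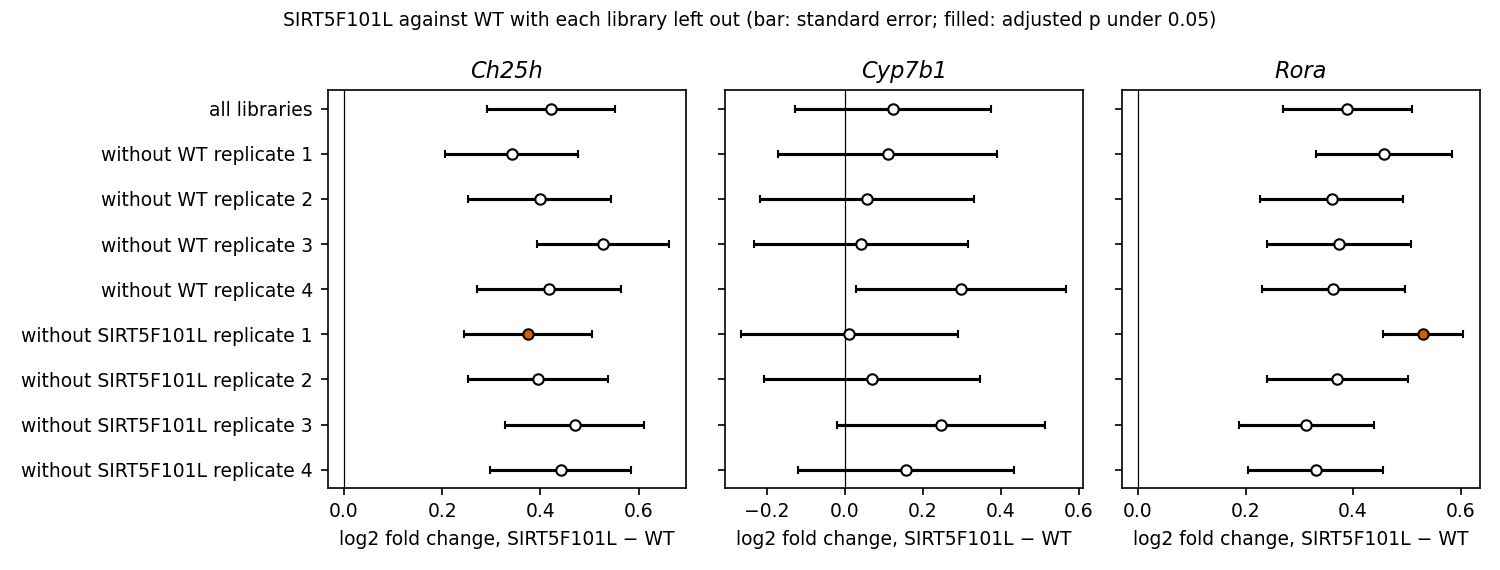
Log2 fold change of SIRT5F101L against WT (horizontal axes) for Ch25h, Cyp7b1 and Rora with all libraries and with each of 8 libraries left out, with the standard error as a bar and filled points where the edgeR adjusted p is under 0.05. Only the fit without SIRT5F101L replicate 1 gives filled points, for Ch25h at 0.38 and for Rora at 0.53.

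The other enzymes of oxysterol metabolism fell or did not pass. Of 15 listed genes 9 were tested, and 6 fell in WT and 6 in SIRT5F101L, with none higher. This is 66.7% called in each, beside 56.8% and 60.7% of all tested genes, of which 28.1% and 30.7% were called lower. The median log2 fold change was -0.92 and -0.83, beside -0.01 and -0.02 over all tested genes. Cyp27a1, the mitochondrial sterol 27-hydroxylase, fell by 1.05 and 0.93 on the log2 scale, and Cyp39a1, an oxysterol 7-alpha-hydroxylase, fell by 0.92 and 0.83 (both named after their values were seen). Acox2, a peroxisomal oxidase of bile acid side chains, fell from 5.82 ± 1.25 CPM (SD, n = 4) to 1.57 ± 0.224 and 1.52 ± 0.234. Sult2b1, a sterol sulfotransferase, had log2 fold changes of -1.13 and -1.84 with 1 to 25 counts per library, and its WT call was lost by DESeq2, with no filter, with the length offset and in 5 of 8 fits that left out 1 library. Cyp46a1, which makes 24-hydroxycholesterol, differed by -0.04 and -0.25 and did not pass. Cyp7a1, the rate-limiting enzyme of bile acid synthesis in liver, was listed at 0 in all libraries, as were Hsd3b7 and Hsd11b1.

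Among oxysterol receptors and sensors, 11 of 12 genes were tested. In WT 3 rose and 4 fell, and in SIRT5F101L 3 rose and 5 fell, or 63.6% and 72.7% called beside 56.8% and 60.7% of all tested genes. Insig1 and Insig2, endoplasmic reticulum proteins that hold back SREBP processing when they bind 25-hydroxycholesterol, rose by 0.50 and 0.35 on the log2 scale in WT and by 0.41 and 0.40 in SIRT5F101L. Smo, the Hedgehog signal transducer, which oxysterols can activate, fell from 229 ± 10.7 CPM (SD, n = 4) to 119 ± 4.59 and 118 ± 4.71. Rxrb, a partner of LXR, fell by 0.42 and 0.62. The LXR gene Nr1h3 fell by 0.35 and 0.39. The other LXR gene, Nr1h2, fell by 0.32 in SIRT5F101L and differed by -0.17 in WT (edgeR adjusted p 0.0521). Gpr183, the receptor for 7-alpha,25-dihydroxycholesterol on immune cells, was listed at 0 in all 12 libraries.

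LXR targets went both ways. All 12 tested genes of the 14 listed changed in both comparisons, 4 higher and 8 lower, where 56.8% and 60.7% of all tested genes were called. Abcg1, a cholesterol exporter, rose from 6.90 ± 0.966 CPM (SD, n = 4) to 32.7 ± 2.61 and 36.0 ± 0.865, and Fasn, the fatty acid synthase, rose by 0.73 and 0.72. The lipid carriers Pltp and Apoe fell the most: Pltp fell by 2.88 in both groups, and Apoe fell by 2.76 and by 2.81. Abca1, the other main exporter, fell by 0.60 and 0.32.

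Of 21 tested cholesterol synthesis genes among 23 listed, 12 rose and 3 fell in WT, and 9 rose and 4 fell in SIRT5F101L, with a median of 0.21 and 0.08. The called shares were 71.4% and 61.9%, beside 56.8% and 60.7% of all tested genes, so the second is near the background. Hsd17b7, a ketosteroid reductase of the pathway, rose from 29.4 ± 1.40 CPM (SD, n = 4) to 83.3 ± 0.838 and 84.5 ± 4.78. Tm7sf2, a sterol reductase, fell by 0.47 and 0.69. Dhcr7, which makes cholesterol from 7-dehydrocholesterol, fell by 0.35 and 0.38, and its WT range overlapped that of Control. Ebp and Nsdhl, both on the X chromosome, were listed at 0.

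Of 13 genes for cholesterol uptake, storage and release, all tested, 5 rose and 3 fell in WT, and 5 rose and 2 fell in SIRT5F101L. That is 61.5% and 53.8% called, near or under the 56.8% and 60.7% of all tested genes. Olr1, a receptor for oxidised low-density lipoprotein, had no count in any Control library and 55 to 91 counts in WT and 57 to 121 in SIRT5F101L libraries. Against a floor of 3 counts per Control library it was at least 25.6-fold higher in WT and 24.6-fold higher in SIRT5F101L. Lrp8, a receptor of the same lipoprotein receptor family as the LDL receptor, rose by 1.40 and 1.27. Soat2, which esterifies cholesterol, fell by 2.57 and 2.08, and Msr1, a scavenger receptor, fell by 0.76 in WT and differed by -0.30 in SIRT5F101L (edgeR adjusted p 0.0956).

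Relatives and partners of ROR alpha were also unequal. Of 10 genes, 5 rose and 3 fell in each comparison, or 80.0% called beside 56.8% and 60.7% of all tested genes. Rorb rose from 0.547 ± 0.341 CPM (SD, n = 4) to 2.19 ± 0.766 and 2.22 ± 0.0763. Ppargc1a, a coactivator that works with ROR alpha, rose by 1.27 and 1.24. Nr1d2, which encodes a REV-ERB repressor that competes at the same DNA elements, fell by 0.53 and 0.39.

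In the clock list, 9 of 10 genes were tested, with 4 rising and 3 falling in each comparison, which is 77.8% called beside 56.8% and 60.7% of all tested genes. Bmal1, activated by ROR and repressed by REV-ERB, rose from 15.1 ± 0.980 CPM (SD, n = 4) to 35.9 ± 1.11 and 38.4 ± 1.90, with no overlap with Control. Nfil3 rose by 1.14 and 1.15. Dbp, an output of the clock that BMAL1 drives, fell, with log2 fold changes of -2.45 and -2.73, and Per2, a repressor in the clock loop, fell by 0.83 and 1.12. Per3 was listed at 0.

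**Figure D5:**
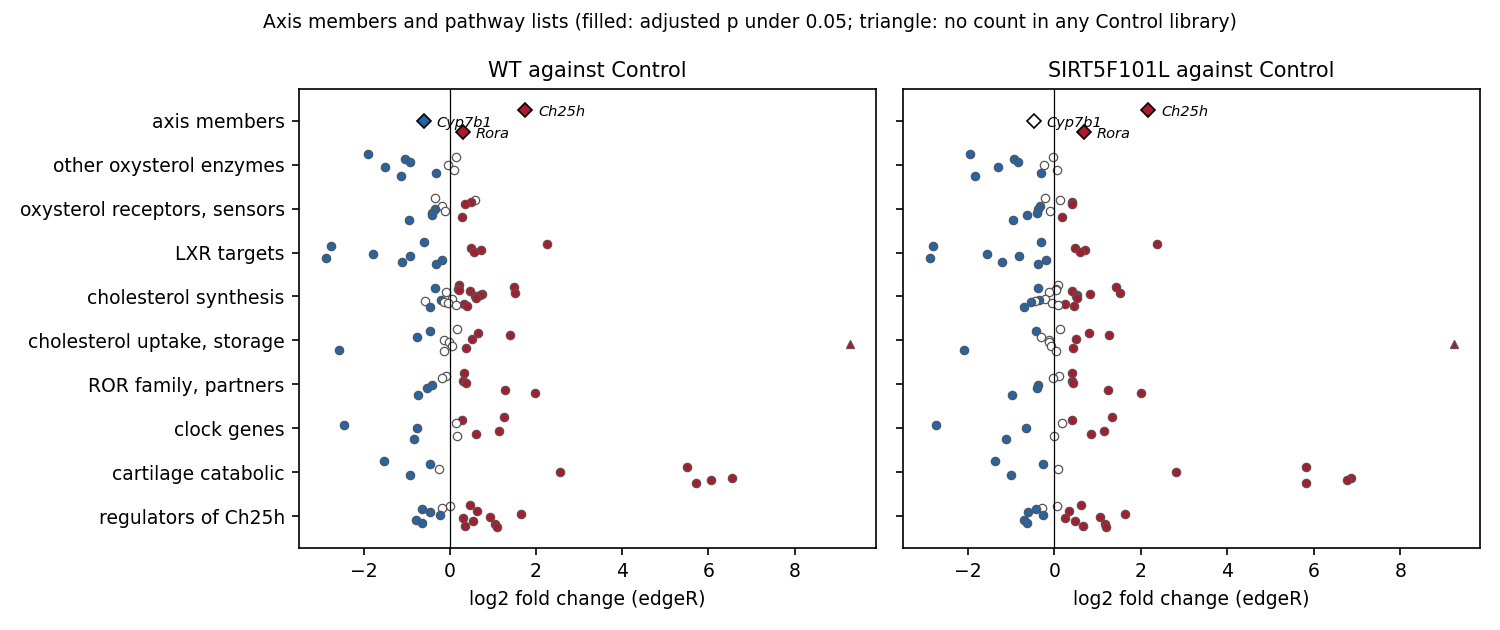
EdgeR log2 fold changes against Control (horizontal axes), 1 point per tested gene, for the axis members and the 9 pathway lists, in WT and SIRT5F101L, filled where the adjusted p is under 0.05. Ch25h lies at 1.75 and 2.18, the other oxysterol enzymes hold no filled point above 0, and the triangle is Olr1, whose fitted size is no bound because Control libraries had no counts.

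Cartilage catabolic genes, which the axis is known to act on, held both large rises and falls. Of 9 tested among 10 listed, 5 rose and 3 fell in each comparison, or 88.9% called beside 56.8% and 60.7% of all tested genes. Mmp3, stromelysin, rose from 16.3 ± 1.55 CPM (SD, n = 4) to 1534 ± 147 and 1882 ± 163. Nos2, the inducible nitric oxide synthase, rose from 0.245 ± 0.314 CPM to 16.8 ± 1.42 and 27.2 ± 3.08, with 0 to 13 counts in Control libraries. Not all moved this way: Adamts4, an aggrecanase, fell by 1.53 and 1.37, and Mmp14, a membrane-type collagenase, fell from 1166 CPM to 617 and 585.

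Of 20 genes upstream of Ch25h, 16 were tested, and 9 rose and 5 fell in each comparison, which is 87.5% called beside 56.8% and 60.7% of all tested genes. Irf7, an interferon regulatory factor, rose from 144 ± 6.90 CPM (SD, n = 4) to 453 ± 19.5 and 450 ± 36.1. Tlr4, the receptor for lipopolysaccharide, rose by 1.10 and 1.19. Ticam1, an adaptor of Tlr3 and Tlr4, fell by 0.65 and 0.63. The cytokine genes Ifnb1, Il1b and Tnf did not pass the filter, with at most 3, 7 and 19 counts in any library. Myd88 was listed at 0 in all libraries.

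Across the 9 lists, 110 of 127 genes were tested, of which 85 were called in WT (47 higher, 38 lower) and 83 in SIRT5F101L (44 higher, 39 lower). These are 77.3% and 75.5% of the 110, beside 56.8% and 60.7% of all tested genes. Between the plasmid groups edgeR called 0 of the 110, with 19 at an unadjusted p under 0.05, and DESeq2 called 2. Over all 14253 genes, edgeR called 6, 11.9% had an unadjusted p under 0.05, and DESeq2 called 38. Without SIRT5F101L replicate 1, edgeR called 27 of the list genes and 2213 over all genes.

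Macrophages express Ch25h, so their markers were read beside it. Of 11 macrophage and leukocyte markers 9 were tested, and in both comparisons 8 fell and 1, Cd14, rose (log2 fold change 2.05 and 2.27), where 28.1% and 30.7% of all tested genes were called lower. The summed level was 186 to 223 CPM in Control, 135 to 153 in WT and 145 to 182 in SIRT5F101L, lower in every plasmid library than in any Control library, while Ch25h was higher. Lyz2 was the most abundant, at 125 CPM in Control, and Itgam was listed at 0. Fibroblast markers summed to 30672 to 36762 CPM in Control and 11081 to 12753 in the plasmid libraries, more than the chondrocyte markers in every group. The sum rests mostly on the collagen genes of the list, and of its 7 genes 2 rose and 5 fell in each comparison, all called, beside 56.8% and 60.7% of all tested genes. Endothelial markers summed to 2.60 to 4.53 CPM over all libraries. Adipocyte markers summed to 23.6 to 26.5 CPM in Control, 29.6 to 34.9 in WT and 24.7 to 37.9 in SIRT5F101L. Of these 4 genes 1 was tested, and it was called higher in both comparisons, where 28.7% and 30.0% of all tested genes were. The part of other cell types in the levels of Ch25h, Cyp7b1 and Rora was not tested.

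Genes whose levels ran close to those of each member were found by the root mean square difference in log2 CPM over the 12 libraries, after centring each gene. This is a description, since group differences dominate it. For Ch25h they were Pde8b, a cyclic AMP phosphodiesterase (0.210), and Hp, haptoglobin (0.219). For Cyp7b1 they were Rpp40 (0.188), Ngrn (0.211) and Serpinb9, a granzyme inhibitor (0.213). For Rora they were Atxn7l1 (0.0934), Fam208a (0.0957) and the T-box factor Tbx18 (0.0966), whose longest transcripts of 3.55 to 7.59 kb are shorter than that of Rora.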

How the data were processed

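Each deposited table gives raw read counts by Ensembl gene ID, in whole numbers, as the values in the authors' files show. Per the labels' protocols, mRNA was captured by poly(A) selection and sequenced as 150 bp paired-end reads. The submitters' processing notes name HISAT2 (2.2.1), HTSeq (2.0.2), DESeq2 (1.38.3) and GRCm39; the annotation and strand setting are not given in the sources used here. Symbols matched 52029 of 57010 IDs. Total counts of 15095357 to 24242139 make 1 count worth 0.0401 to 0.0650 CPM, and this precision covers counting error only. Pairs of libraries differed by 2.56 to 8.92 times sampling noise within groups and by 2.61 to 35.9 times between groups, so no library was counted as deposited more than once; whether libraries of a group share a culture or mouse is not given.

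The test was edgeR (4.0.16, R 4.3.3): TMM scaling, the filter filterByExpr given the groups, and 1 quasi-likelihood model of the 12 libraries, 2-sided, with Benjamini-Hochberg adjustment over 14253 genes and a threshold of 0.05. The standard error is the log2 fold change over the square root of F. The pipeline was run on simulated counts in which far fewer genes changed than were called here, equally up and down, with no length trend. That run does not show its error rate in data such as these. Alternatives were no filter, scaling by RLE or by the upper quartile, a mean of 1 CPM, a robust prior, the 8 libraries compared, DESeq2 (1.42.0), each library left out, and, added after seeing the data, a loess length trend (span 0.5) as offset. Lengths and exon overlaps came from GENCODE M21 (GRCm38), whose coordinates were not joined to the counts, and the promoter from RefSeq's GRCm38.p6 table, which matched 2 of 3 members.

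The members and lists were chosen with earlier results of these data known. Named from each list were up to 2 genes with the highest and 2 with the lowest mean log2 fold change against Control among called genes; the 3 nearest to each member among 12479 tested genes whose symbol is not that of a predicted gene; from each cell type list, the most abundant gene and those at 0. Atf3, Cyp27a1, Cyp39a1, Cyp46a1, Nr1h2, Nr1h3, Abca1, Cd14, Gm26902, the genes that did not pass the filter and the pathway genes at 0 were named after their values were seen. Some genes that the rule chose are not reported here.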

Additional observations from a re-analysis of the deposited data

Results flagged for a closer look

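Each of 44 measures was screened in 3 groups for a library far from the other 3, by the gap to the nearest library over the group's range. The screen found 12 such values, where chance flags about 1 in 20 groups, or 6.60 of 132.

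Rora stood out in WT replicate 1, at 119 CPM where the other libraries of the group had 98.7 to 102. The ratio of Rora to Cyp7b1 counts per kb was 7.54 in WT replicate 4 and 11.8 to 12.5 in the others. The length slope of SIRT5F101L replicate 1 was -0.0588 beside 0.0809 to 0.103. Sirt5 was at 1.23 CPM in SIRT5F101L replicate 2 and at 0.481 to 0.602 CPM in the others.

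Among pathway genes, Insig1 was at 90.9 CPM in SIRT5F101L replicate 2 (others 101 to 102). WT replicate 1 stood out for Rxrb at 33.9 CPM (others 38.6 to 39.5) and Dhcr7 at 19.8 CPM (others 16.5 to 16.9). Tm7sf2 was at 13.9 CPM in Control replicate 3, where the others had 13.5.

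Among summed markers, Control replicate 2 was low for the chondrocyte list at 9282 CPM (others 11297 to 11636) and for the fibroblast list at 30672 CPM (others 35921 to 36762). The chondrocyte sum was 2954 CPM in WT replicate 3 (others 2842 to 2856), and the endothelial sum was 4.53 CPM in Control replicate 3 (others 3.50 to 3.60).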

How the results depend on the processing

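Against Control, Ch25h in both plasmid groups and Rora in SIRT5F101L passed in all 16 alternatives each. Leaving out 1 library gave edgeR log2 fold changes of 1.63 to 1.86 (Ch25h, WT), 2.05 to 2.28 (Ch25h, SIRT5F101L) and 0.62 to 0.83 (Rora, SIRT5F101L). For Cyp7b1 in WT the call was lost with no filter (-0.59), by DESeq2 (-0.59) and with the length offset (-0.55), and leaving out 1 library gave -0.77 to -0.45. For Rora in WT it was lost with upper-quartile scaling (0.25), the robust prior (0.30) and the length offset (0.13), and leaving out 1 library gave 0.23 to 0.36. For Cyp7b1 in SIRT5F101L the range was -0.62 to -0.32.

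Between the plasmid groups, Ch25h passed with no filter (0.42; leaving out 1 library 0.34 to 0.53), as did Rora (0.38; 0.31 to 0.53). Cyp7b1 passed in none (leaving out 1 library 0.01 to 0.30). Genes called went from 6 to 354 with no filter, 38 by DESeq2, 20 with the length offset, 2 with the robust prior, 2 with only the 8 libraries compared, and 0 to 2213 leaving out 1 library. Pathway genes called went from 0 to 6 with no filter, 1 with only the 8 libraries compared, 2 by DESeq2, 3 with the length offset, and 0 to 27 leaving out 1 library. The causes were not tested. Of 1086 alternatives against Control, for the pathway genes that the naming rule chose, 1075 kept direction and side of the threshold and 0 reversed. Between the plasmid groups these genes were not followed one by one.

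No paired analysis was possible because the labels carry no replicate number; the numbers 1 to 4 used here follow sample order within a group. Low counts limit Cyp7b1 and Sirt5.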
